A study of Mus with 14 samples.

Results

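The platelet and megakaryocyte effector genes Pf4, Itga2b, Vwf, Gp1bb, Gp9, Cavin2, Treml1, F2r, Plek and Rab27b were followed through the cell classes of a mouse marrow transplant experiment. They were chosen by name, as 10 of the 32285 genes listed in each of 14 single-cell libraries, and all 10 were found in the files. Their levels were read per mouse in all kept cells together, in a megakaryocyte class, in a class of stem cells carrying Hlf transcripts, and in the other marrow classes.

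Megakaryocytes are the marrow cells that shed platelets into the blood. Platelets stick to damaged vessel walls through surface receptors, are activated by thrombin, and release the contents of their granules. Megakaryocytes descend from haematopoietic stem cells by stepwise commitment, and a part of the stem cell pool carries platelet transcripts such as Vwf, favours platelet output and becomes more common in old marrow.

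The granule genes are Pf4 (ENSMUSG00000029373, chromosome 5, 90772435 to 90773383), which encodes a chemokine stored in alpha granules, Vwf (ENSMUSG00000001930, chromosome 6, 125552948 to 125686679), which encodes the adhesive multimer von Willebrand factor, and Treml1 (ENSMUSG00000023993, chromosome 17, 48359916 to 48367176), whose receptor sits in alpha granule membranes. The adhesion receptor genes are Itga2b (ENSMUSG00000034664, chromosome 11, 102453297 to 102469883), which encodes the alpha subunit of the fibrinogen receptor, also known as CD41. Gp1bb (ENSMUSG00000050761, chromosome 16, 18620319 to 18622403) and Gp9 (ENSMUSG00000030054, chromosome 6, 87776131 to 87779786) encode subunits of the platelet receptor for von Willebrand factor. F2r (ENSMUSG00000048376, chromosome 13, 95601780 to 95618466) encodes a protease-activated thrombin receptor, which mouse platelets use less than related receptors. Plek (ENSMUSG00000020120, chromosome 11, 16971206 to 17008718) encodes pleckstrin, a substrate of protein kinase C in platelets and leukocytes. Rab27b (ENSMUSG00000024511, chromosome 18, 69979131 to 70141633) encodes a GTPase of granule secretion, and Cavin2 (ENSMUSG00000045954, chromosome 1, 51289126 to 51302960) a protein of membrane caveolae found in platelets and endothelium. Coordinates are whole-gene intervals on GRCm38 from RefSeq. Gp1bb overlaps the protein-coding gene Septin5, while Cavin2 and Rab27b overlap the long non-coding genes 9330175M20Rik and Gm41770. Reads from such neighbours cannot be told apart without strand, and whether the counting used strand is not given in the sources used here, so the counts of these 3 genes are uncertain to that extent.

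Each library came from 1 mouse that had received a secondary transplant of CD45.2+ marrow into an irradiated CD45.1+ host, and lineage-negative, Kit-positive CD45.2+ donor cells were sorted from its marrow 20 weeks later. The MxCre group (3 mice) carried only the Mx-driven Cre recombinase, which poly(I:C) switches on, and all groups had received poly(I:C) as primary recipients. The Dnmt3a group (4 mice) carried in addition an altered allele of Dnmt3a, the DNA methyltransferase gene often mutated in clonal haematopoiesis. Dnmt3a;Tnfr1KO (3 mice) and Dnmt3a;Tnfr2KO (4 mice), called Tnfr1KO-labelled and Tnfr2KO from here on, combined it with loss of a TNF receptor. The labels do not give the Dnmt3a allele or say which primary recipient supplied which mouse, so p-values measure the spread between these mice, some of which may share a donor. The series title asks how the TNF receptors bear on stem cell fitness and lineage output of Dnmt3a-mutant cells.

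Libraries held 62416022 to 162869740 transcript counts (unique molecular identifiers, UMIs), and filters kept 66895 cells, 1924 to 7265 per library, with median depths of 10639.5 to 39097.5 UMIs per cell. Any pair of libraries shared 2 to 23 barcodes, at most 0.348% of the smaller one. Tnfrsf1b was lower in Tnfr2KO than in Dnmt3a mice, at 5.06 ± 0.50 against 13.7 ± 1.4 CPM (counts scaled to the library size, mean ± SD, n = 4 and 4; adjusted p = 0.000501), but Tnfrsf1a in the Tnfr1KO-labelled mice was 38.3 ± 4.3 CPM (n = 3) against 43.6 ± 9.2 CPM (n = 4; adjusted p = 0.602), so its transcript did not mark that label. Dnmt3a itself was 30.5 ± 2.2 CPM in the Dnmt3a mice and 24.6 ± 3.2 CPM in MxCre mice (adjusted p = 0.0848). 3′ counting can register transcripts of a gene whose deleted part lies elsewhere, and the deleted parts are not given in the labels.

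A pair of mice stood apart in the platelet genes. Among Hlf-positive cells that met the megakaryocyte marker rule described in the next paragraph, Pf4 stood at 42.8 CPM in Dnmt3a replicate 3 (104 cells) and at 140.1 CPM in Tnfr2KO replicate 4 (175 cells). In the other 12 mice it was 1361 to 4883 CPM. Vwf was 3.13 and 5.66 CPM in that pair of mice and 27.4 to 115 CPM in the others. Cavin2 had no UMI in the 104 cells of Dnmt3a replicate 3, which allows up to 2.88% of such cells with one, and 6.80 CPM in Tnfr2KO replicate 4, against 65.3 to 177 CPM elsewhere. Cd34, a gene of earlier progenitors, had a UMI in 88.6% and 75.7% of their megakaryocyte-class cells but in 20.6% to 50% of those of the other mice with at least 20 such cells. The main comparisons are also given without these mice.

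Cells were placed in classes by UMIs of marker genes that did not include any of the 10 genes. A cell joined a committed lineage with at least 3 UMIs from at least 2 of that lineage's markers and a scaled marker sum at least 2 times the next lineage's. The stem class held 6389 cells with at least 1 Hlf UMI that joined no committed lineage other than the megakaryocyte one. Cells that passed several marker lists without a sum 2 times the next joined no lineage, so with Hlf they entered the stem class. The name stem class stands for this rule only. The megakaryocyte class held 2825 cells that met the megakaryocyte rule without Hlf. In the megakaryocyte class Nrgn had a UMI in 99.8% of cells, Gp5 in 81.7%, F2rl2 in 33.8% and Itgb3 in 26.9%, whereas Ppbp (4.9%), Tubb1 (0.3%) and Gp6 (0.3%), markers of later maturation, were rare. The cells picked by the T and NK cell list carried Nkg7 (97.1%) and Gata3 (90.0%) but rarely Cd3e (6.0%) or Trac (6.2%), and 66.4% had Hlf, so they are called Nkg7/Gata3 cells.

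The 10 genes were concentrated in the megakaryocyte class, followed for 8 of them by the stem class. By its definition the stem class kept Hlf-positive cells that met the megakaryocyte rule but left out those joining any other lineage. Of its 6389 cells, 2440 met the megakaryocyte rule. The ranking and the summed shares below do not separate these cells from the rest of the stem class. How far the class rule sets the second place was not tested. All 10 had their highest level in the megakaryocyte class in each of the 13 mice with at least 20 such cells, except Itga2b, which did so in 12 of 13. Pf4 averaged 2258 ± 1110 CPM there (SD, n = 13 mice), 578 ± 368 CPM in the stem class (n = 14) and 24.2 CPM or less in every other class. Stem and megakaryocyte cells together held 93.0% of all Pf4 UMIs, 88.1% of Cavin2, 85.0% of Gp1bb, 80.4% of Treml1, 77.5% of Vwf and 70.4% of Rab27b UMIs. For Gp9 (50.9%), Itga2b (49.6%), F2r (47.6%) and Plek (45.8%) about as many UMIs lay in other classes.

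Those 4 genes differed in where else they were found. Itga2b averaged 200.2 ± 64.6 CPM in the megakaryocyte class, then 107 ± 21.4 CPM in the basophil and mast cell class, above the stem class at 58.1 ± 29.0 CPM in 14 of 14 mice. Gp9 averaged 54.9 ± 12.8 CPM in the megakaryocyte class. It stood at 15.0 ± 8.5 CPM in the stem class and 13.8 ± 4.8 CPM in basophil and mast cells. These means and SDs pool mice of all 4 groups, between which the stem class level differed, so they do not rank the 2 classes.

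F2r averaged 131 ± 46.1 CPM in the megakaryocyte class, 38.98 ± 17.4 CPM in erythroid cells and 38.6 ± 26.7 CPM in stem cells. Here too the means pool groups between which the stem class level differed. Plek averaged 179.6 ± 60.8 CPM in the megakaryocyte class and 61.6 ± 22.7 CPM in stem cells. It stood at 41.7 ± 7.5 CPM in basophil and mast cells, 26.7 ± 6.3 CPM in monocytes and 27.5 ± 24.6 CPM in B-lymphoid cells (n = 7), where Vwf averaged 0.0513 CPM.

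The ratio of Itga2b to Pf4 UMIs varied between classes and between mice. Over mice with at least 20 Pf4 UMIs in a class, its median was 0.0883 in the megakaryocyte class (0.0614 to 0.452, n = 14), where the highest value was that of Tnfr2KO replicate 4 and the next 0.129. In the stem class the median was 0.103 (0.0707 to 1.69, n = 14), and the highest values, 1.69 and 1.11, were those of Dnmt3a replicate 3 and Tnfr2KO replicate 4. Medians were 0.4225 in monocytes (0.0125 to 1.09, n = 14), 1.54 in erythroid cells (0.358 to 4.15, n = 12), 1.92 in granulocyte-class cells (0.857 to 4.53, n = 14) and 6.07 in basophil and mast cells (2.53 to 10.9, n = 10). The ranges overlapped between most of these classes.

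**Figure D1:**
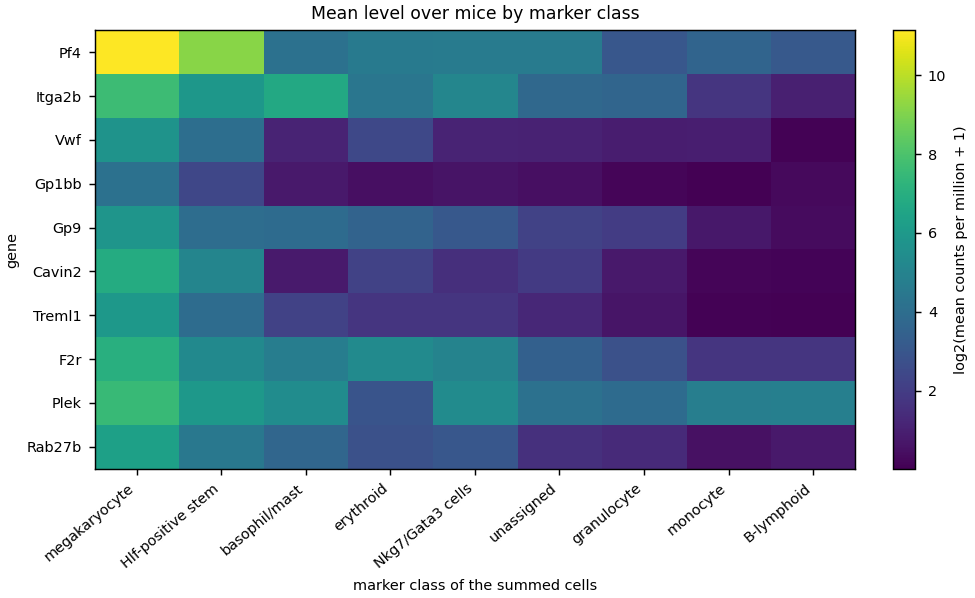
Mean level of each of the 10 genes (rows) in each marker-defined cell class (columns), as log2(mean CPM + 1). The mean CPM was taken over mice with at least 20 cells of the class. The megakaryocyte column is the highest for all 10 genes, and the basophil and mast cell column stands out for Itga2b at 107 CPM.

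Across the 118 sums of 1 class in 1 mouse, the genes most like Pf4 by Pearson r of log2(CPM + 1) were Cavin2 (0.935), Gp1bb (0.915), Treml1 (0.915), F2rl2 (0.914) and Gucy1b1 (0.906), out of 11886 genes compared. Those most like Vwf were Cavin2 (0.930), Gucy1b1 (0.908), F2rl2 (0.908), Myom1 (0.906) and Pde10a (0.901). Itga2b followed Pf4 less closely, at 0.685. These sums share libraries and depth, and F2rl2 was one of the class markers, so the values only describe the pattern.

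In all kept cells of each library summed together, the adhesion receptor genes Itga2b and Gp9 fell in Dnmt3a mice against MxCre mice, and the other 8 genes had lower estimates that did not pass the test. In such sums, fewer cells of a type and less RNA per cell cannot be told apart. Itga2b stood at 34.6, 44.7 and 58.6 CPM in MxCre replicates 1 to 3 and at 17.9, 28.9, 13.2 and 8.37 CPM in Dnmt3a replicates 1 to 4, with no overlap (means 46.0 ± 12.1 and 17.1 ± 8.8 CPM, log2 fold change -1.43, SE 0.31, adjusted p = 0.0412). Gp9 was 10.95, 11.1 and 18.9 CPM against 4.43, 7.72, 2.71 and 2.43 CPM, also without overlap (means 13.6 ± 4.5 and 4.32 ± 2.43 CPM, log2 fold change -1.66, SE 0.33, adjusted p = 0.0358).

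The granule genes pointed the same way with a wider spread. Pf4 was 263, 310.4 and 494 CPM in MxCre mice and 109, 244, 9.64 and 32.4 CPM in Dnmt3a mice (log2 fold change -1.85, SE 0.84, adjusted p = 0.205). Every Dnmt3a mouse lay below every MxCre mouse, but the Dnmt3a mice ranged from 9.64 to 244 CPM among themselves. Vwf was 5.37, 8.20 and 17.3 CPM against 4.55, 6.24, 0.748 and 1.61 CPM, with overlapping groups (log2 fold change -1.65, SE 0.66, adjusted p = 0.151). Cavin2, at 11.4, 21.5 and 35.4 CPM in MxCre mice, was 9.04 and 14.4 CPM in Dnmt3a replicates 1 and 2 but only 0.157 and 0.991 CPM in replicates 3 and 4.

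F2r, the thrombin receptor gene, did not overlap between the groups either, at 29.8, 39.7 and 48.7 CPM against 13.6, 21.7, 5.82 and 3.12 CPM (log2 fold change -1.84, adjusted p = 0.083). Plek moved least, with 30.7, 36.2 and 47.0 CPM in MxCre and 37.5, 32.1, 18.7 and 19.9 CPM in Dnmt3a mice (log2 fold change -0.49, adjusted p = 0.261). Treml1 was 7.25 to 14.1 CPM in MxCre and 0.869 to 7.40 CPM in Dnmt3a mice, Rab27b 9.48 to 19.6 against 1.53 to 10.4 CPM, and Gp1bb 1.82 to 3.62 against 0.164 to 2.51 CPM, each with overlapping groups. Thus 2 of 10 genes passed the test as lower, where 1.14% of the 15622 genes tested did. In all, 10 of 10 had estimates below 0 with a median log2 fold change of -1.66, beside 0.03 over all genes. Groups did not overlap for 4 of 10 genes, against 9.16% of all genes. Both calls ended when any MxCre mouse or Dnmt3a replicate 1 or 3 was left out (adjusted p 0.0576 to 0.168), and also without the pair of mice that stood apart (Gp9 -1.49, adjusted p = 0.0798, and Itga2b -1.32, adjusted p = 0.0881). Leaving out Dnmt3a replicate 2 raised the count from 2 to 5, with the share of all genes called in that fit not given here. B-lymphoid cells gave 16.7% of the UMIs of Dnmt3a replicate 4 and 0.0355% to 0.335% of those of MxCre mice. With them left out, Gp9 (-1.62, adjusted p = 0.0297) and Itga2b (-1.38, adjusted p = 0.0323) still passed.

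**Figure D2:**
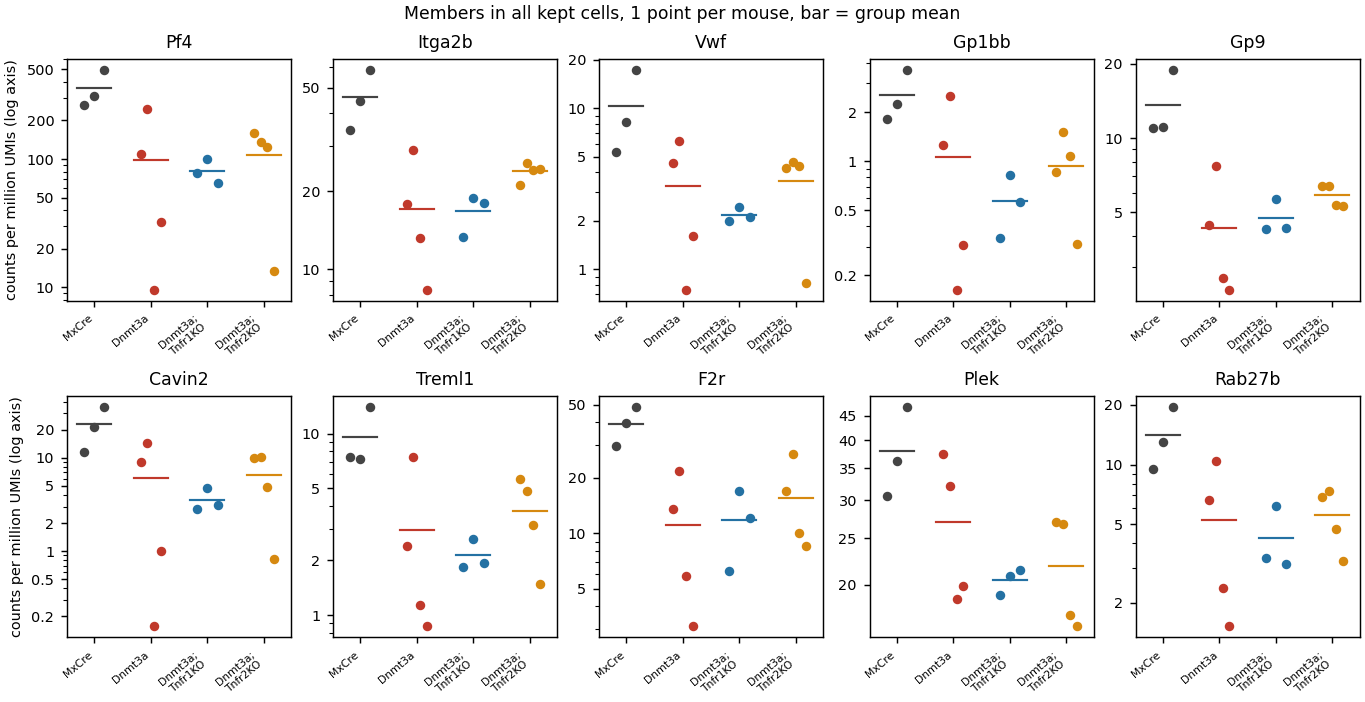
Level of each of the 10 genes in all kept cells of each library (CPM on a log axis, 1 point per mouse, bars at group means), by group. MxCre mice are the highest group for every gene, and Pf4 in the Dnmt3a mice runs from 9.64 to 244 CPM.

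Against the same MxCre mice, the Tnfr1KO-labelled and Tnfr2KO mice also had lower estimates for all 10 genes, but none passed the test. Itga2b was 13.3, 18.8 and 18.03 CPM in Tnfr1KO-labelled mice (log2 fold change -1.46, adjusted p = 0.076, or -1.45 and 0.0465 with B-lymphoid cells left out) and 21.2, 25.6, 24.3 and 24.5 CPM in Tnfr2KO mice. Vwf was 1.99, 2.44 and 2.12 CPM in Tnfr1KO-labelled mice and 4.25, 4.61, 4.38 and 0.826 CPM in Tnfr2KO mice. For each of the 10 genes every mouse of both groups lay below every MxCre mouse, where this held for 13.2% of all genes in the Tnfr1KO-labelled and 9.41% in the Tnfr2KO comparison.

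edgeR called 0 of 10 genes in each of these comparisons, against 0.237% (Tnfr1KO-labelled) and 0.243% (Tnfr2KO) of all genes called lower. At an unadjusted p below 0.05 they numbered 10 and 7, against 7.8% and 7.71% of all genes lower at that level. DESeq2 called 3 and 1, against 2.32% and 1.45% of all genes called lower. The median log2 fold change of the 10 genes was -1.93 and -1.35. Since these comparisons share the MxCre mice, they are not independent of the Dnmt3a comparison.

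Between the Dnmt3a groups no difference in these genes was detectable in all cells. Log2 fold changes ran from -0.87 to 0.14 for Tnfr1KO-labelled against Dnmt3a mice, from -0.30 to 0.50 for Tnfr2KO against Dnmt3a and from 0.10 to 0.86 for Tnfr2KO against Tnfr1KO-labelled mice. edgeR and DESeq2 each called 0 of 10 genes in all 3 comparisons, none had an unadjusted p below 0.05, and 0.448%, 0.851% and 0.205% of all genes were called in either direction.

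**Figure D3:**
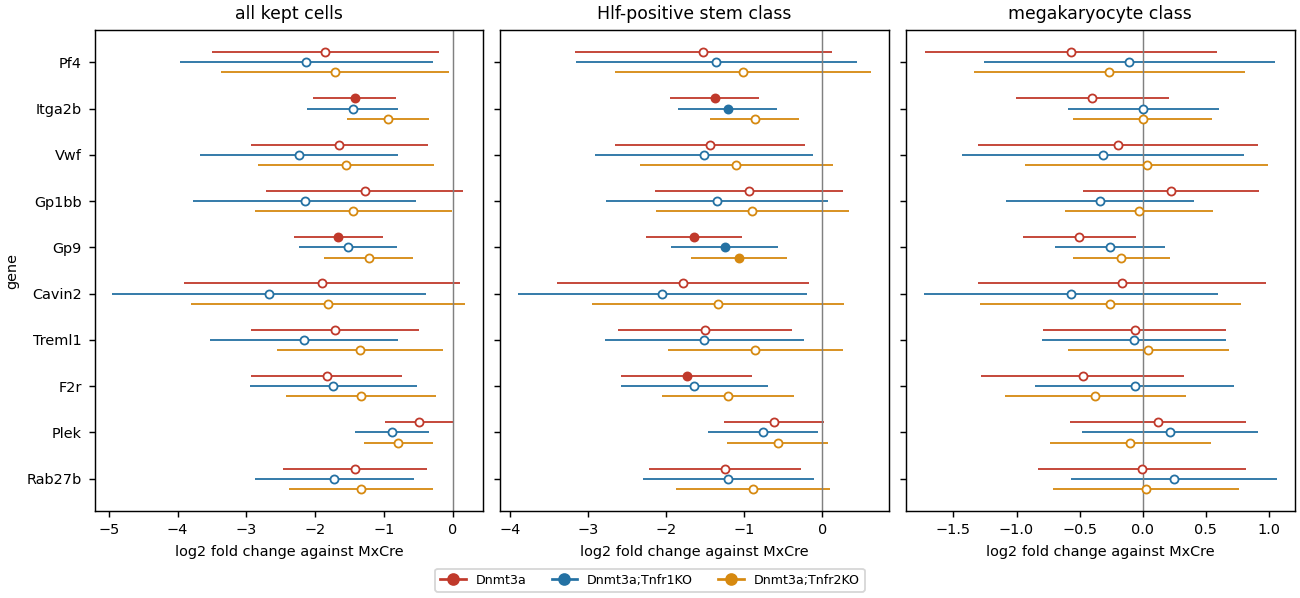
Log2 fold change of each gene against MxCre mice in all kept cells, in the Hlf-positive stem class and in the megakaryocyte class (points, with bars for the 95% interval from the standard error). Filled points passed the test at an adjusted p below 0.05. Estimates sit below 0 for all 10 genes in the first 2 panels and around 0 in the megakaryocyte panel.

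The share of megakaryocyte-class cells was lower in every mouse that carried the Dnmt3a alteration than in every MxCre mouse. It was 7.56%, 7.86% and 12.2% of kept cells in MxCre mice and 2.18%, 5.38%, 0.803% and 0.184% in Dnmt3a mice, a difference of -7.06 percentage points (exact two-sided permutation test, p = 0.0571, the smallest this design allows, adjusted p over 6 comparisons = 0.171). In Dnmt3a replicate 4, 37.7% of kept cells were B-lymphoid, against 0.307% to 1.17% in MxCre mice. With B-lymphoid cells left out, an alternative chosen after seeing the data, its share was 0.296% and the group difference -7.07 points. Tnfr1KO-labelled mice had 1.45%, 4.24% and 2.91%, or -6.33 points against MxCre (exact p = 0.10, again the smallest possible, adjusted p = 0.20).

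Tnfr2KO mice had 4.98%, 4.85%, 3.74% and 2.87%, or -5.08 points against MxCre (exact p = 0.0571, adjusted p = 0.171). Tnfr2KO mice differed from Dnmt3a mice by 1.97 points (exact p = 0.171, adjusted p = 0.257), and the groups overlapped. The lineage-negative, Kit-positive sort removes mature cells and can set these shares. With Nrgn taken off the marker list, an alternative chosen after seeing the data, MxCre mice had 2.59% to 4.03% and the other mice 0.0553% to 1.74%.

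**Figure D4:**
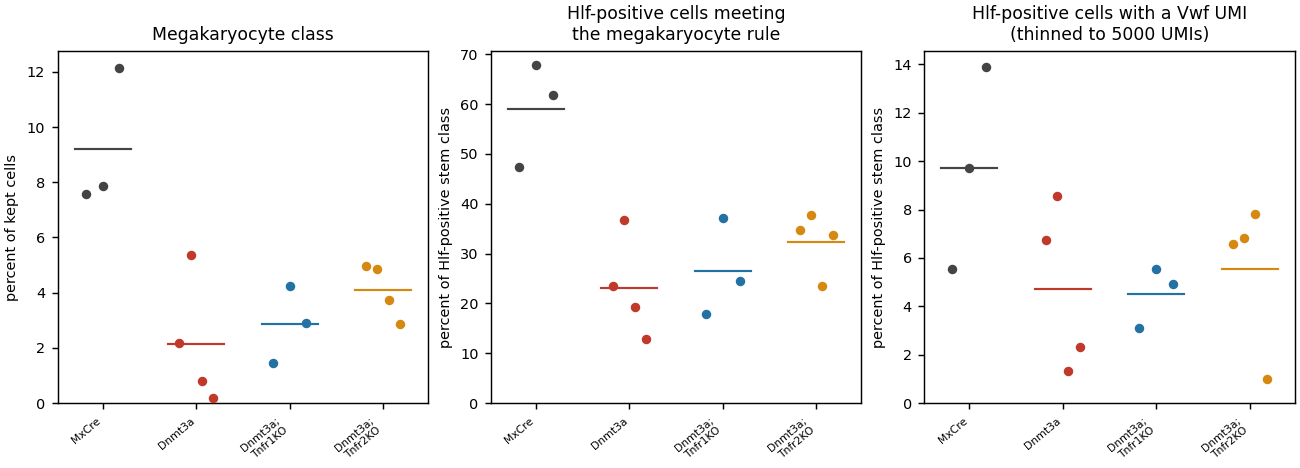
Share of kept cells in the megakaryocyte class, and shares of the Hlf-positive stem class that met the megakaryocyte rule or carried a Vwf UMI after thinning to 5000 UMIs, 1 point per mouse by group, with bars at group means. MxCre mice are highest in the first 2 measures, while for Vwf the groups overlap.

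Within the megakaryocyte class itself the levels of 9 of the 10 genes overlapped between MxCre mice and each other group, and Gp9 did not overlap between MxCre and Dnmt3a mice. Pf4 was 2927, 2654 and 2329 CPM in MxCre mice, 1793, 2767 and 756.5 CPM in Dnmt3a replicates 1 to 3, 4022, 1637 and 1695 CPM in Tnfr1KO-labelled mice and 2744, 1645, 4063 and 320.0 CPM in Tnfr2KO mice. For Pf4 all groups overlapped with MxCre. Dnmt3a replicate 4 had only 10 such cells and was left out of every fit in this class. Itga2b was 204, 235 and 197 CPM in MxCre, 188, 197 and 87.5 CPM in Dnmt3a, 267, 157 and 219 CPM in Tnfr1KO-labelled and 169, 180.1, 358 and 145 CPM in Tnfr2KO mice.

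The low values came from the pair of mice that stood apart. Cavin2 was 6.43 CPM in Dnmt3a replicate 3 and 25.5 CPM in Tnfr2KO replicate 4, but 77.2 to 192 CPM in the other 11 mice. Vwf was 14.2 and 7.34 CPM in them and 32.3 to 111 CPM in the others. F2r was 29.6 and 47.2 CPM against 117 to 191 CPM.

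Against MxCre, log2 fold changes in this class ran from -0.57 to 0.22 in Dnmt3a, from -0.57 to 0.25 in Tnfr1KO-labelled and from -0.38 to 0.05 in Tnfr2KO mice. edgeR and DESeq2 called 0 of 10 genes in each of the 6 comparisons, where edgeR called, among 10176 genes, 0.432% (Dnmt3a), 0.147% (Tnfr1KO-labelled) and 0.364% (Tnfr2KO) against MxCre, 0.0295% and 0.108% (Tnfr1KO-labelled and Tnfr2KO) against Dnmt3a, and 0.0786% between the TNF receptor groups. The one member at an unadjusted p below 0.05 was Gp9 in Dnmt3a against MxCre (log2 fold change -0.50, adjusted p = 0.319), where 14.4% of all genes were below it. It stood at 62.3, 65.4 and 64.4 CPM in MxCre and 44.3, 57.2 and 27.02 CPM in Dnmt3a mice, without overlap, as for 10.2% of all genes. Median log2 fold changes of the 10 genes against MxCre were -0.18, -0.09 and -0.06 in Dnmt3a, Tnfr1KO-labelled and Tnfr2KO mice, beside -1.66, -1.93 and -1.35 in all cells. Without the pair of mice that stood apart, the medians in this class were 0.15, -0.10 and 0.14. The pair was picked for low values of Pf4, Vwf and Cavin2, so the change of sign in Dnmt3a and Tnfr2KO mice supports nothing. Against MxCre none of the 10 genes was then called, and Cavin2 was lower in Tnfr1KO-labelled than in Dnmt3a mice (-0.90, adjusted p = 0.0434), with only 2 Dnmt3a mice left. Low Cavin2 was among the reasons for which the pair was picked, so that call supports nothing.

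**Figure D5:**
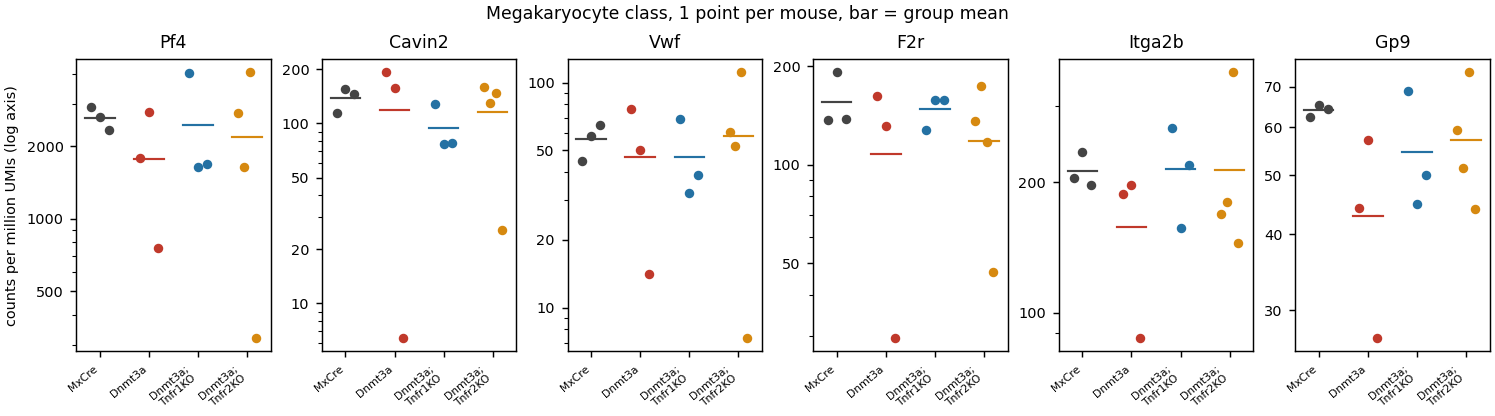
Level of 6 of the 10 genes in the megakaryocyte class (CPM on a log axis, 1 point per mouse, bars at group means), by group, without Dnmt3a replicate 4. Groups overlap apart from Gp9 between MxCre and Dnmt3a mice, and the low points are Dnmt3a replicate 3 and Tnfr2KO replicate 4, at 756.5 and 320.0 CPM for Pf4.

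In the Hlf-positive stem class, Gp9, Itga2b and F2r fell in Dnmt3a mice. Gp9 was 24.5, 24.8 and 35.6 CPM in MxCre mice and 9.87, 15.8, 5.28 and 5.06 CPM in Dnmt3a mice (log2 fold change -1.64, SE 0.31, adjusted p = 0.00343). Itga2b was 70.2, 125 and 109.6 CPM against 44.7, 64.4, 20.4 and 26.1 CPM (log2 fold change -1.38, SE 0.29, adjusted p = 0.00589). F2r was 55.2, 93.5 and 88.6 CPM against 26.7, 42.9, 12.9 and 11.3 CPM (log2 fold change -1.74, SE 0.43, adjusted p = 0.0127).

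None of these 3 genes overlapped between the groups. The fourth without overlap was Pf4, with 851, 1174 and 1194 CPM in MxCre mice against 406, 834, 12.1 and 239 CPM (log2 fold change -1.52, adjusted p = 0.222). Vwf was 17.4, 29.6 and 40.8 CPM against 14.05, 21.3, 1.21 and 6.03 CPM (log2 fold change -1.44, adjusted p = 0.117). Cavin2 was 37.9, 89.5 and 84.8 CPM against 29.0, 44.4, 0.143 and 7.003 CPM (log2 fold change -1.79, adjusted p = 0.142).

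The other 4 genes had estimates below 0 that did not pass the test. These were Treml1 (-1.503, adjusted p = 0.077), Rab27b (-1.24, adjusted p = 0.093), Gp1bb (-0.93, adjusted p = 0.311) and Plek (-0.61, adjusted p = 0.207). So 3 of 10 genes were called lower, against 9.48% of the 12146 genes tested, and 4 of 10 did not overlap, against 14.6% of all genes. The median log2 fold change was -1.47, beside 0.01 for all genes.

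Gp9 and Itga2b passed the test under each of 22 alternatives, with adjusted p up to 0.0306 and 0.0452, and F2r under 20 of 22, losing its call without MxCre replicate 2 (adjusted p = 0.0518) or 3 (adjusted p = 0.0602). Without the pair of mice that stood apart, Gp9 (-1.45), Itga2b (-1.17) and F2r (-1.54) passed. Pf4 passed there too, but the pair was picked for low Pf4, Vwf and Cavin2, so that call supports nothing. Leaving out Dnmt3a replicate 2, the Dnmt3a mouse with the highest Pf4, raised the count from 3 to 6. The shares of all genes called under these alternatives are not given here.

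In the Tnfr1KO-labelled mice, Gp9 and Itga2b fell against MxCre in the stem class. Gp9 was 10.02, 15.1 and 10.3 CPM (log2 fold change -1.25, SE 0.35, adjusted p = 0.0420) and Itga2b 36.6, 50.7 and 43.4 CPM (log2 fold change -1.21, SE 0.32, adjusted p = 0.0338). F2r, at 17.9, 32.7 and 24.5 CPM, had an estimate of -1.64 (adjusted p = 0.053). So 2 of 10 genes were called, against 3.89% of all genes called lower, and for 10 of 10 every mouse lay below every MxCre mouse, against 16.8% of all genes. Without MxCre replicate 2 or 3, or without Tnfr1KO-labelled replicate 1 or 3, neither gene passed. Without MxCre replicate 1 the count was 3, and without Tnfr1KO-labelled replicate 2 it was 1. Without the pair of mice that stood apart, which are in neither of these groups but share the estimate of spread, 6 passed. Cavin2, Pf4 and Vwf were among them, which supports nothing, since the pair was picked for low values of these genes. The shares of all genes called with mice left out are not given here.

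In Tnfr2KO mice Gp9 alone was called lower in the stem class, at 18.1, 15.1, 11.2 and 9.77 CPM (log2 fold change -1.06, SE 0.31, adjusted p = 0.0495), against 3.7% of all genes. The call sat at the threshold: it held under 9 of 22 alternatives and was lost when any 1 of the 7 mice compared was left out (adjusted p 0.0509 to 0.277). Pf4 was 708, 656, 719.6 and 42.8 CPM and Vwf 17.6, 18.2, 17.7 and 1.93 CPM in these mice, so that replicates 1 to 3 lay close together and replicate 4 far below them. Groups did not overlap for 3 of 10 genes, against 12% of all genes.

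Between the Dnmt3a groups, no member differed detectably in the stem class. edgeR and DESeq2 called 0 of 10 in each of the 3 comparisons and none had an unadjusted p below 0.05, where 0.716%, 0.716% and 0.132% of genes were called in either direction. Tnfr2KO mice had higher estimates than Dnmt3a mice for 10 of 10 genes, with a median log2 fold change of 0.48.

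The stem class was a mixture in which megakaryocyte-rule cells varied by group. Of its 6389 cells, 2440 also met the megakaryocyte rule: 47.3%, 67.9% and 61.9% in MxCre mice, 23.6%, 36.7%, 19.3% and 12.8% in Dnmt3a mice, 17.8%, 37.1% and 24.6% in Tnfr1KO-labelled mice and 34.8%, 37.7%, 23.4% and 33.7% in Tnfr2KO mice. MxCre mice did not overlap with any other group. Nor did they with the markers counted at equal depth. After thinning each cell to 5000 UMIs, the list was met by 25.1% ± 3.8 (n = 3), 7.88% ± 4.29 (n = 4), 9.40% ± 1.01 (n = 3) and 15.3% ± 1.8 (n = 4) of stem cells. These stem cells were still chosen by Hlf at full depth, where median depths ran from 14635 to 38919 UMIs between mice. The summed level of the 10 megakaryocyte markers in the stem class was 347 to 557 CPM in MxCre and 139 to 272 CPM in the other groups, and that of 6 stem cell markers was 162 to 281 CPM in MxCre and 89.2 to 154 CPM in the others. Endothelial markers did not move with the groups, at 77.7 to 97.3 CPM in MxCre and 60.1 to 117 CPM in the others, with Cldn5 at 0 in the 3 Dnmt3a groups.

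When megakaryocyte-rule cells were left out of the stem class, Gp9, F2r and Itga2b still passed in Dnmt3a mice. The shares of all genes called in these fits are not given here, so the calls cannot be set against them. In thinned cells of this kind Vwf, Cavin2 and Treml1 were rare, with a UMI in 0.913%, 1.17% and 1.34% on average over mice. The averages were 3.46% for Gp9, 5.90% for Pf4, 9.13% for F2r and 11.6% for Itga2b. A missing call for the rarest genes therefore says little. Against MxCre, Gp9 (log2 fold change -1.63, adjusted p = 0.0071), F2r (-1.62, adjusted p = 0.0054) and Itga2b (-0.92, adjusted p = 0.045) fell in Dnmt3a mice. Pf4 gave -0.71 (adjusted p = 0.595), Vwf -1.19 (adjusted p = 0.300) and Treml1 -0.87 (adjusted p = 0.453), while Cavin2 gave -2.02 (adjusted p = 0.182). Gp9 and F2r also fell in Tnfr1KO-labelled mice (-1.62, adjusted p = 0.032, and -1.79, adjusted p = 0.015) and in Tnfr2KO mice (-1.60, adjusted p = 0.020, and -1.32, adjusted p = 0.034). F2r in the Tnfr2KO and Tnfr1KO-labelled mice had not passed with those cells included. Itga2b lost its call in Tnfr1KO-labelled mice (-1.12, adjusted p = 0.0731) and gave -0.75 in Tnfr2KO mice (adjusted p = 0.159).

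Carriage of several platelet genes by single stem cells was counted as well. In cells thinned to 5000 UMIs, at least 3 of the 10 genes had a UMI in 31.3% ± 8.5 of MxCre stem cells (21.5% to 36.7%), 11.4% ± 8.4 in Dnmt3a (3.77% to 19.0%), 13.1% ± 2.3 in Tnfr1KO-labelled (10.9% to 15.5%) and 14.9% ± 6.2 in Tnfr2KO mice (6.14% to 19.8%). MxCre mice lay above all others. Without the pair of mice that stood apart the Dnmt3a and Tnfr2KO means were 14.01% ± 8.1 and 17.8% ± 2.6. Among stem cells that met the megakaryocyte rule the groups overlapped, with 41.1% to 50.4% in MxCre, 10.6% to 63.04% in Dnmt3a, 36.7% to 44.7% in Tnfr1KO-labelled and 12.7% to 60.3% in Tnfr2KO mice. Among those outside the rule the shares were 3.73% to 13.7% in MxCre, 1.06% to 5.07% in Dnmt3a, 2.80% to 3.33% in Tnfr1KO-labelled and 0.541% to 3.33% in Tnfr2KO mice, so that only the Dnmt3a mice overlapped with MxCre. The matching mean shares in granulocyte-class cells of the 4 groups, in the same order, were 3.08%, 0.642%, 0.404% and 0.972%. That class also takes in early progenitors, with Hlf in 16.2% of its cells on average over mice. Its shares are therefore no measure of background. Stem cells with none of the 10 genes made up 28.5% in MxCre and 58.0%, 58.7% and 55.7% in the other groups.

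Vwf, the transcript by which platelet-biased stem cells are known, was read in stem cells chosen on all their UMIs and then thinned to equal depth, in a design too small for any adjusted p below 0.05. After thinning it had a UMI in 5.54%, 9.71% and 13.9% of stem cells in MxCre mice, 6.74%, 8.55%, 1.32% and 2.30% in Dnmt3a mice, 3.11%, 5.56% and 4.91% in Tnfr1KO-labelled mice and 6.57%, 6.81%, 7.82% and 0.990% in Tnfr2KO mice. Before thinning the MxCre mice had 12.3%, 21.5% and 25.3% and the Dnmt3a mice 13.8%, 16.2%, 3.16% and 5.94%. The Tnfr1KO-labelled mice had 4.55%, 9.57% and 7.96%, all below every MxCre mouse, and the Tnfr2KO mice 11.3%, 13.3%, 12.3% and 2.31%. Differences from MxCre were -4.99 percentage points in Dnmt3a (exact two-sided permutation test, p = 0.229, where the smallest possible is 0.0571, adjusted p over 6 comparisons = 0.457), -5.19 in Tnfr1KO-labelled (exact p = 0.20, adjusted p = 0.457) and -4.17 in Tnfr2KO mice (exact p = 0.229, adjusted p = 0.457), and all groups overlapped with MxCre. With the stem class itself chosen after thinning, an alternative added after seeing the data, the shares were 2.81%, 4.505% and 9.61% in MxCre and 6.897%, 10.3%, 1.61% and 3.704% in Dnmt3a mice. The differences from MxCre then were -0.0141 points in Dnmt3a, -1.30 in Tnfr1KO-labelled and -1.13 in Tnfr2KO mice. Without the pair of mice that stood apart they were -3.86 points in Dnmt3a and -2.65 in Tnfr2KO mice (exact permutation p = 0.40 each). For the Tnfr1KO-labelled mice that overlap was 5.556% in replicate 2 against 5.537% in MxCre replicate 1, and under 6 of 11 alternatives every such mouse lay below every MxCre mouse (exact permutation test, p = 0.10, the smallest these group sizes allow). The 3 differences between Dnmt3a groups lay between -0.20 and 1.02 points (adjusted exact p = 0.914 each). In granulocyte-class cells the Vwf share averaged 0.656% over mice (0.156% to 3.30%), at a median depth of 22509.5 UMIs against 20948 in the stem class. Stem cells outside the megakaryocyte rule averaged 0.913%, with 5.48% in MxCre replicate 3 and at most 2.03% in the other 13 mice, whose mean was 0.562%. Stem cells inside the rule averaged 16.2% and the megakaryocyte class 16.96%.

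Stem cells with a Vwf UMI carried the other platelet genes far more often than stem cells without. Vwf itself was found in 16.2% of stem cells inside the megakaryocyte rule and in 0.913% of those outside it, on average over mice. The contrast below was not repeated within either part. It therefore cannot be told apart from a contrast of megakaryocyte-rule cells with the rest. In the 10 mice with at least 10 Vwf-positive stem cells (397 cells in all, thinned), Pf4 was found in 87.8% of Vwf-positive and 18.3% of Vwf-negative cells, Cavin2 in 60.7% and 8.85%, Rab27b in 50.9% and 7.498%, and Treml1 in 37.7% and 5.18%. Among receptors and signalling genes, Itga2b was found in 70.9% and 20.6%, Gp9 in 31.2% and 8.19%, Gp1bb in 19.6% and 1.499%, F2r in 46.9% and 19.2%, and Plek in 68.5% and 21.8%. The share was higher in Vwf-positive cells in 10 of 10 mice for each gene except Gp1bb, with 9 of 10. The same cells carried less Cd34 (16.4% against 62.8%), Flt3 (1.45% against 8.37%), Cd48 (22.7% against 46.0%) and Elane (18.9% against 40.5%), lower in 10 of 10 mice each. Hlf was found in 35.5% of them and 43.0% of the rest, and was higher in Vwf-positive cells in 3 of 10 mice. Other stem cell genes did not rise either: Procr was found in 1.71% against 3.07% (lower in 8 of 10 mice), Mecom in 12.7% against 15.8% (lower in 7 of 10) and Mllt3 in 8.29% against 8.12% (lower in 6 of 10). Slamf1 was found in 11.8% against 4.78% (higher in 8 of 10) and Selp in 28.97% against 19.5% (higher in 9 of 10). The megakaryocyte-rule markers Nrgn (89.9% against 54.3%) and Gp5 (40.3% against 14.1%) were higher in 10 of 10 mice. The cell cycle gene Mki67 was found in 55.8% against 50.8% (higher in 7 of 10).

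UMIs of these genes assigned to cells outside the megakaryocyte and stem classes were also compared between Dnmt3a and MxCre mice. In granulocyte-class cells 5 of 9 tested genes fell, against 1.56% of all genes called lower: Cavin2 (log2 fold change -3.36, adjusted p = 0.0366), Pf4 (-2.005, adjusted p = 0.0334), F2r (-1.66, adjusted p = 0.0384), Gp9 (-1.15, adjusted p = 0.0300) and Itga2b (-0.92, adjusted p = 0.0410). Pf4 there averaged 16.3 ± 2.9 CPM in MxCre and 4.12 ± 2.89 CPM in Dnmt3a mice. Pf4 also fell in the basophil and mast cell class, from 30.1 ± 7.3 to 8.85 ± 3.96 CPM (adjusted p = 0.0245, 1 of 6 tested, against 0.334% of genes), and in the Nkg7/Gata3 cells, from 53.9 ± 6.0 to 10.53 ± 5.7 CPM (adjusted p = 0.0109, 1 of 6 tested, against 0.377%). Pf4 in all cells stood at 263 to 494 CPM in MxCre and 9.64 to 244 CPM in Dnmt3a mice, and 93.0% of its UMIs lay in stem and megakaryocyte cells. No background level was taken for these classes, and the part of free RNA in the lower counts was not tested. Of the 18527 cells with Hlf, 8993 fell in the granulocyte class, whose marker list also takes in early myeloid progenitors.

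In erythroid and monocyte classes edgeR called 0 of 9 and 0 of 6 tested genes in this comparison, where it called 0% of all genes, with 1 and 0 members at an unadjusted p below 0.05, a level that 15.8% of genes reached in the erythroid class. DESeq2 was not run there. In B-lymphoid cells, Plek was 31.5, 33.7 and 35.8 CPM in Tnfr1KO-labelled mice and 4.51, 12.004 and 1.95 CPM in Dnmt3a replicates 1, 3 and 4, means of 33.7 ± 2.2 and 6.15 ± 5.23 CPM (n = 3 each, log2 fold change 2.91, adjusted p = 0.0118, 1 of 3 tested, against 11.1% of genes called in either direction). MxCre replicate 3, with 18 Plek UMIs in 52 such cells, stood at 73.1 CPM, above all of these mice. No comparison with MxCre was fitted in this class, so the difference does not show which group departed from the control. The Tnfr1KO-labelled values rested on 3, 34 and 13 Plek UMIs in 27, 352 and 124 cells. Median depth of these cells also differed, at 2230 to 2608.5 UMIs in Tnfr1KO-labelled and 3530.5 to 15461 UMIs in the 3 Dnmt3a mice, and its part in the result was not tested.

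Of 4 further lists of platelet and stem cell genes fitted in the stem class, the receptor list and the platelet-biased and aged stem cell list had medians well below 0 in Dnmt3a mice, while the granule and cytoskeletal lists stayed nearer to 0. In Dnmt3a against MxCre mice, 13 of 20 tested platelet receptor and signalling genes fell, among them F2rl2 (log2 fold change -1.80) and Gp5 (-1.73), a subunit of the von Willebrand factor receptor. Fcer1g (1.22), an adaptor of collagen receptor signalling, and Rasgrp2 (0.52), an activator of integrin signalling, rose. Of 17 tested granule genes 4 fell, led by Mmrn1 (-2.23), Pdgfb (-1.86) and Nrgn (-1.36), and Gpx1 rose (0.57). Of 11 tested cytoskeletal genes Vasp fell (-0.40) and Pstpip2 rose (1.36). Of 12 tested genes of platelet-biased and aged stem cells 8 fell and none rose, among them Plscr2 (-3.55) and Nupr1 (-3.18). The median log2 fold changes of the 4 lists were -0.92, -0.24, 0.06 and -1.77, beside 0.01 for all genes, of which 18.5% were called in either direction. Gp5, F2rl2 and Nrgn were markers of the megakaryocyte rule, which the stem class does not exclude.

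The other groups, compared with the same MxCre mice, gave fewer calls in these lists, with 6.47% (Tnfr1KO-labelled) and 7.31% (Tnfr2KO) of all genes called in either direction. In Tnfr1KO-labelled mice 8 receptor genes and 6 genes of the platelet-biased list fell, including Fhl1 (-2.82) and Nupr1 (-2.38). In Tnfr2KO mice 5 and 7 fell, including Plscr2 (-3.29) and Aldh1a1 (-2.35). Among the Dnmt3a groups Nupr1 alone was called, higher in Tnfr2KO than in Dnmt3a stem cells at 16.3 against 5.82 CPM (log2 fold change 1.497, adjusted p = 0.0382). In the megakaryocyte class 2 genes of the lists were called: Nupr1 (-2.34, adjusted p = 0.0485) in Dnmt3a and P2rx1 (-1.07, adjusted p = 0.0146), an ATP-gated channel of platelets, in Tnfr1KO-labelled mice.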

How the data were processed

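The authors deposited per-library gene matrices of UMI counts made with bcl2fastq 2.20.0.422 and Cell Ranger 6.0.0 on mm10/GRCm38, per the submitters' processing notes; the settings are not given in the sources used here. Barcodes were kept from 1000 UMIs and 500 detected genes upward where mitochondrial transcripts made up less than 10%. Simulated doublets (2000 variable genes, 30 components, 30 neighbours) were scored and a share of 0.8% per 1000 cells was removed, 31 to 480 cells per library. Filters kept 26.5% of barcodes in Dnmt3a replicate 1 and up to 91.6% elsewhere. UMIs were summed per mouse and class (at least 20 cells) and fitted over all genes and all 4 groups with edgeR 4.0.16 (TMM scaling, filterByExpr, quasi-likelihood test, Benjamini-Hochberg adjustment, threshold 0.05) in R 4.3.3; DESeq2 1.42.0 was an alternative. CPM values use TMM-scaled library sizes, except in the descriptions of Hlf-positive cells meeting the megakaryocyte rule, where plain totals were used. In simulated counts for Dnmt3a against MxCre (15449 genes), 82% of 2-fold and 98% of 4-fold changes were recovered, with 6 false calls. These are averages over genes. They do not give the recovery for members with a wide spread between mice, such as Pf4, Vwf and Cavin2, so an uncalled member may still have changed. Shares were compared by exact permutation tests. Intervals and limits at a count of 0 (3 counts) cover counting error only. Genes were named as the 10 members, the leading 3 called genes in each direction of each further list, and the 5 most like Pf4 and Vwf. One gene of these lists is counted but not reported by name here. The members, lists and tests were chosen with earlier results of these data known. Same-numbered mice deviated with correlations of -0.313 to 0.242, so numbers were not treated as pairs. No sequence is shown. Left out were barcodes failing the filters and sums of fewer than 20 cells.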

Additional observations from a re-analysis of the deposited data

Results flagged for a closer look

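Of 54 groups of 4 mice examined for a mouse far from the rest, 4 had a gap to the nearest mouse, as a share of the group's range, above Dixon's 95% critical value, where chance gives about 1 in 20. All 4 were Tnfr2KO groups. Vwf in all cells was 0.826 CPM in replicate 4 against 4.25 to 4.61 CPM in the other mice (gap of 0.905 of the range). Pf4 in the stem class was 42.8 CPM in replicate 4 against 656 to 719.6 CPM (0.906), and Vwf in the stem class was 1.93 CPM in the same mouse against 17.6 to 18.2 CPM (0.961). Itga2b in the megakaryocyte class was highest in replicate 3, at 358 CPM against 145 to 180.1 CPM (0.833).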

How the results depend on the processing

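Counts of the 10 genes called lower against MxCre moved under several settings. Apart from the DESeq2 fits in all cells, the shares of all genes called under these settings are not given here. Whether the moves were particular to the 10 genes therefore cannot be read from these counts. In all cells, the 2 genes called in Dnmt3a mice became 0 with only the 2 groups compared in the fit, 0 without Dnmt3a replicate 3 and Tnfr2KO replicate 4, and 0 to 5 without 1 mouse at a time. The 0 called in Tnfr1KO-labelled mice became 3 with DESeq2, 1 with B-lymphoid cells left out and 5 with 2 groups, and the 0 in Tnfr2KO mice 1 with DESeq2 and 2 with 2 groups. In the stem class, 3 calls in Dnmt3a mice became 7 with no filter on low counts and 2 to 6 without 1 mouse. The 2 calls in Tnfr1KO-labelled mice became 10 with 2 groups, 6 without the pair of mice, 0 with at least 6 marker UMIs, 1 with at least 2 Hlf UMIs, 1 where stem cells needed Hlf and at least 2 of 5 other stem genes, and 0 to 3 without 1 mouse. The 1 call in Tnfr2KO mice became 3 with no filter, 2 with 2 groups, 2 without megakaryocyte-rule cells, 0 with at least 6 marker UMIs, 0 with at least 2 Hlf UMIs, 0 with the T and NK list less Nkg7 and Gata3, 0 without the pair of mice, and 0 to 1 without 1 mouse. In the megakaryocyte class, 1 gene was called in Dnmt3a mice with no filter, and 1 in Tnfr1KO-labelled against Dnmt3a mice without the pair. The cause of these moves was not tested. A replicate block, entered although the numbers did not pair the mice, gave 1 call in all cells of Dnmt3a mice in place of 2 and left Gp9 in Tnfr2KO stem cells uncalled (adjusted p = 0.0649). Of single-gene values under the alternatives, 3397 kept their side of the threshold, 56 gained and 45 lost a call, and 311 of the 3397, none of them called, changed sign. These totals include values never called. Among called results, Gp9 and Itga2b held under 9 and 8 of 16 alternatives in all cells of Dnmt3a mice. In the stem class they held under 15 and 12 of 21 in Tnfr1KO-labelled mice and under 22 of 22 each in Dnmt3a mice. Across alternatives the megakaryocyte share differed from MxCre by -8.14 to -2.50 points in Dnmt3a, -7.14 to -2.28 in Tnfr1KO-labelled and -5.90 to -2.13 in Tnfr2KO mice, and the Vwf share of stem cells by -9.93 to -0.0141, -12.4 to -1.30 and -9.91 to -1.13 points. Vwf differences between Dnmt3a groups changed sign, for Tnfr1KO-labelled against Dnmt3a from -2.43 to 1.55 points. The 6 added alternatives were chosen after seeing the data: those on the pair of mice, B-lymphoid cells, Nkg7 and Gata3, Nrgn, and the 2 wider or stricter stem rules. Thinning before the class rule was planned for the megakaryocyte share and added after seeing the data for the Vwf share. Shallow cells limit shares of rare transcripts such as Gp1bb and Vwf.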
